A study of Mus musculus with 12 samples.

Results

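The Wnt module examined here comprised 48 mouse genes: 19 Wnt ligands, 15 Frizzled, LRP, ROR and RYK receptors and coreceptors, 9 secreted inhibitors and 5 genes that serve as targets or feedback regulators of the pathway. The genes were taken from a fixed list by matching the probe identifiers of the arrays to gene annotation, and all 48 had a probe, with 60 of the 55681 non-control probes in all. Of these genes, 40 entered the tests, among 29795 features tested.

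Wnt proteins are secreted lipid-modified ligands that bind Frizzled receptors together with the coreceptors Lrp5 and Lrp6, which stabilises beta-catenin and lets TCF and LEF factors switch on target genes such as Axin2. Other Wnt proteins act through Ror and Ryk receptors without beta-catenin, and sFRP, Wif1 and Dickkopf proteins limit signalling outside the cell. In the heart the pathway is known for its role in early cardiac specification, in outflow tract and valve formation, and in the response of adult myocardium to injury.

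The arrays measured RNA from the apex of hearts of 15-week-old male C57BL/6J mice that were heterozygous for a knock-in allele of Nkx2-5, the cardiac homeobox transcription factor. The groups were I183M/+ and I183P/+, in which 1 isoleucine is replaced by methionine or by proline, delta/+, in which the gene is deleted from the allele, and a knock-in control/+ line that keeps isoleucine. Each group had 3 arrays, so that 12 one-colour arrays were compared, and the other allele carried the wild-type label (+) in all groups. The labels do not say whether replicates came from separate animals, so p-values measure the spread between these samples only.

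One control array stood apart, and the differences from control hearts that the results turn on are therefore given with and without it. Control replicate 1 (control 1 below) had 99.1% of its spots well above background, against 51.2% to 75.2% on the 11 other arrays. Of these, delta replicate 2 (75.2%) and I183M replicate 1 (72.85%) were the highest, and the rest had 51.2% to 60.5%. Over all features tested, their deviations from the group means correlated with those of control 1 at 0.87 and 0.79. Both arrays stayed in the results given without control 1. Nkx2-5 itself had log2 levels of 4.52, 4.63 and 4.57 in I183M hearts, 4.74, 4.54 and 4.51 in I183P hearts and 3.77, 3.78 and 3.92 in delta hearts, against 3.11, 4.45 and 4.56 in control hearts. The delta arrays lay below every other array except control 1. The delta minus control difference was -0.22 with all arrays (limma adjusted p = 0.866) and -0.68 without control 1 (limma adjusted p = 0.0647). All 7 cardiomyocyte markers were well above background on all 11 other arrays. The arrays lay on 2 slides, 1 with all delta arrays and I183P replicate 3 and the other with the remaining arrays. All levels below are log2 processed intensity minus the 75th percentile of the array, and levels of different probes are not set against each other.

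Promoters are shown for 3 genes, a receptor and 2 secreted inhibitors, whose levels are described in detail below. None of their differences between groups passed the threshold (limma adjusted p under 0.05) with equal array weights. Each window holds the 250 bases before the RefSeq start in GRCm38.p6, and 35 of the 48 genes had such a window. Both strands were searched for CTTTGAT, a core of the sites that TCF and LEF factors bind, and for TNAAGTG, a core of the sites that Nkx2-5 binds. Capitals mark a TNAAGTG match. The Fzd7 window is chr1:59481897-59482146 on the plus strand, the Wif1 window chr10:121033754-121034003 on the plus strand and the Sfrp5 window chr19:42202253-42202502 on the minus strand.
Fzd7: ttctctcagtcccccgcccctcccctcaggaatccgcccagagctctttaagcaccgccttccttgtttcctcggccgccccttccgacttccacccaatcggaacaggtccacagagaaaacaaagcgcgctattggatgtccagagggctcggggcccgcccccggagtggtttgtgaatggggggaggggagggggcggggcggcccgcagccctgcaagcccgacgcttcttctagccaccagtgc
Wif1: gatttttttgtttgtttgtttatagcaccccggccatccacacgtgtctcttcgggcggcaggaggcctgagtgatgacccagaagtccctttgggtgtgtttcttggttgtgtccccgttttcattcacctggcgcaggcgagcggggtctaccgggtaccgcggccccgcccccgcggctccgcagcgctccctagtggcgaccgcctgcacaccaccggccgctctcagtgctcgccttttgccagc
Sfrp5: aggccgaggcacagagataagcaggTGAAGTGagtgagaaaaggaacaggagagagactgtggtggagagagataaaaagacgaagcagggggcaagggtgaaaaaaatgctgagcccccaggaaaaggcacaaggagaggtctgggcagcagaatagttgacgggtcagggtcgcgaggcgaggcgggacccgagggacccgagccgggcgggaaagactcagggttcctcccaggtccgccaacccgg

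The Sfrp5 window held 1 TNAAGTG match, 225 bases before the start. The 35 genes had 42 windows, since some had more than 1 start. This motif was found in 2 of the 42, those of Wnt8b and Sfrp5, and it occurred in 10.1% of the 32851 promoter windows of the table. CTTTGAT was found in 2 of the 42, 1 window each of Wnt5b and Wnt11, and in 3.21% of all windows. A match describes the letters of the window and shows no binding.

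Most of the receptors and fewer of the ligands were measured in the adult apex. Outside control 1, 29 of the 48 genes were well above background on all 11 arrays: 8 of 19 ligands (Wnt1, Wnt4, Wnt5a, Wnt5b, Wnt6, Wnt9a, Wnt9b and Wnt11), 12 of 15 receptors (Fzd1, Fzd2, Fzd4 to Fzd9, Lrp5, Lrp6, Ror2 and Ryk), 6 of 9 inhibitors (Sfrp1, Sfrp2, Sfrp5, Frzb, Dkk3 and Wif1) and 3 of 5 targets (Axin2, Nkd1 and Nkd2). Another 5 were above background on part of them: Wnt7b on 3, Wnt8b on 4, Lef1 on 6, and Wnt16 and Fzd3 on 10 each. On the probes used, the values of the 29 genes can be read across groups, and those of the other 5 only in part. Wnt7b was well above background on 0 delta arrays and Wnt8b on 0 I183P arrays.

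For the remaining 14 genes the arrays gave little beyond background. Wnt2, Wnt7a, Wnt8a, Ror1, Sfrp4 and Tcf7 cleared background on 2 of the 11 and reached the minimum of 3 arrays only through control 1. On all 6, control 1 read higher than each of the 11 other arrays. Wnt2b, Wnt3, Wnt3a, Wnt10a, Wnt10b, Fzd10, Dkk1 and Dkk2 did not reach that minimum and were not tested. Of these 8, Wnt10b and Dkk1 cleared background on 1 of the 11 and the others on 0.

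Control 1 departed from the other arrays in both directions within the module. Among the 29 genes measured on all 11 arrays, it lay below all 11 for 14, above all 11 for 7 and within their range for 8. Fzd4 showed this on a bright probe: control 1 had a log2 level of 1.59, where control replicates 2 and 3 had 3.32 and 3.11.

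**Figure D1:**
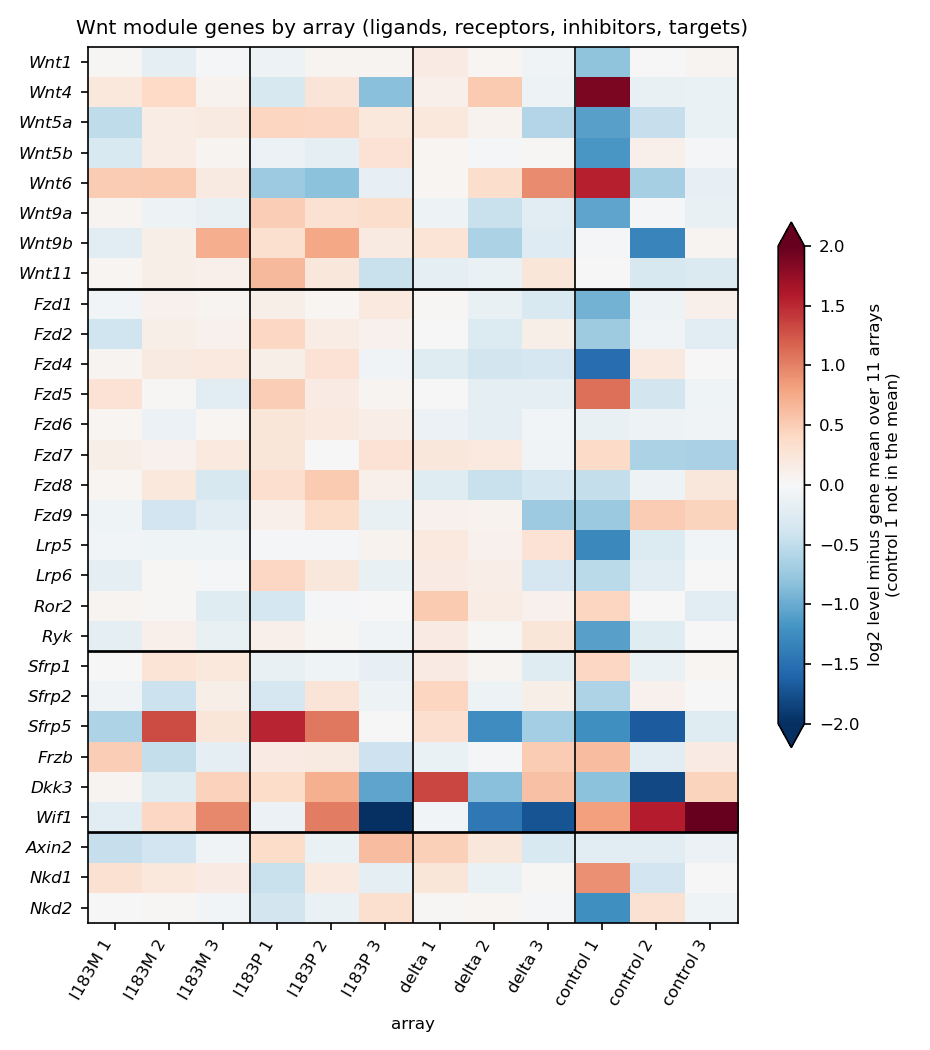
Log2 level of the 29 genes that were well above background on all 11 arrays other than control 1, by array, as the deviation from each gene's mean over those 11 arrays (colour scale clipped at -2 and 2). Horizontal lines part ligands, receptors, inhibitors and targets. The control 1 column departs from the rest in both directions, and Wif1, Sfrp5 and Dkk3 vary most among the other 11.

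Most of these 29 genes differed little between the 11 arrays. The range over the 11 was under 1 on the log2 scale for 19 genes, from 1 to 2 for 6, and above 2 for 4. The 4 were Wif1, an inhibitor that binds Wnt proteins directly (4.48), Sfrp5, a secreted Frizzled-related inhibitor (3.19), Dkk3, a divergent Dickkopf protein (3.12), and the ligand Wnt9b (2.09).

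No module gene passed the threshold in any of the 6 comparisons between groups, either with all arrays or without control 1 (limma, Benjamini-Hochberg adjusted p under 0.05 over 29795 features). In I183M against control hearts 0 features passed (0%), in I183P against control hearts 1 passed (0.00336%), and in delta against control hearts 22 passed (0.0738%). The 3 comparisons between mutant lines gave 0 features each (0%). At an unadjusted p under 0.05 in limma, 0 of the 40 tested genes were below the threshold for I183M (1.46% of all features), 7 for I183P (5.18%) and 2 for delta (7.35%) against control hearts. Between lines, this count was 0 for I183P against I183M (1.28%), 0 for delta against I183M (3.51%) and 2 for delta against I183P (2.78%). Ror1, 1 of the 7 for I183P against control hearts, met the filter only with control 1. Among the 29 genes measured on all 11 other arrays, that count was 5, beside 1244 of 19426 features with the same background criterion.

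Leaving out control 1 gave 0, 5 and 51 features past the threshold against control hearts for I183M, I183P and delta (0%, 0.0168% and 0.171%), and the module count stayed at 0. Without that array, unadjusted p-values under 0.05 were found for 4 module genes in I183M (6.16% of all features), 8 in I183P (8.16%) and 7 in delta hearts (14.9%). Between lines, 0 features passed for I183P against I183M (0%), 13 for delta against I183M (0.0436%) and 7 for delta against I183P (0.0235%). Unadjusted p-values under 0.05 then numbered 7 (9.51%), 2 (11.4%) and 8 (12%) among the 40 genes, in the same order. Ror1 was among the 7 and the 8. Among the 29 measured genes the counts were 5, 2 and 7, beside 1471, 2812 and 2668 of 19426 features.

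The median difference of the module lay near that of other measured features. Over the 29 genes, the median log2 difference from control hearts was 0.19 in I183M, 0.35 in I183P and 0.21 in delta hearts, beside 0.27, 0.27 and 0.28 over the 19426 features that met the same background criterion. Without control 1 the medians were 0.05, 0.15 and 0.10, beside 0.01, 0.00 and 0.04.

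**Figure D2:**
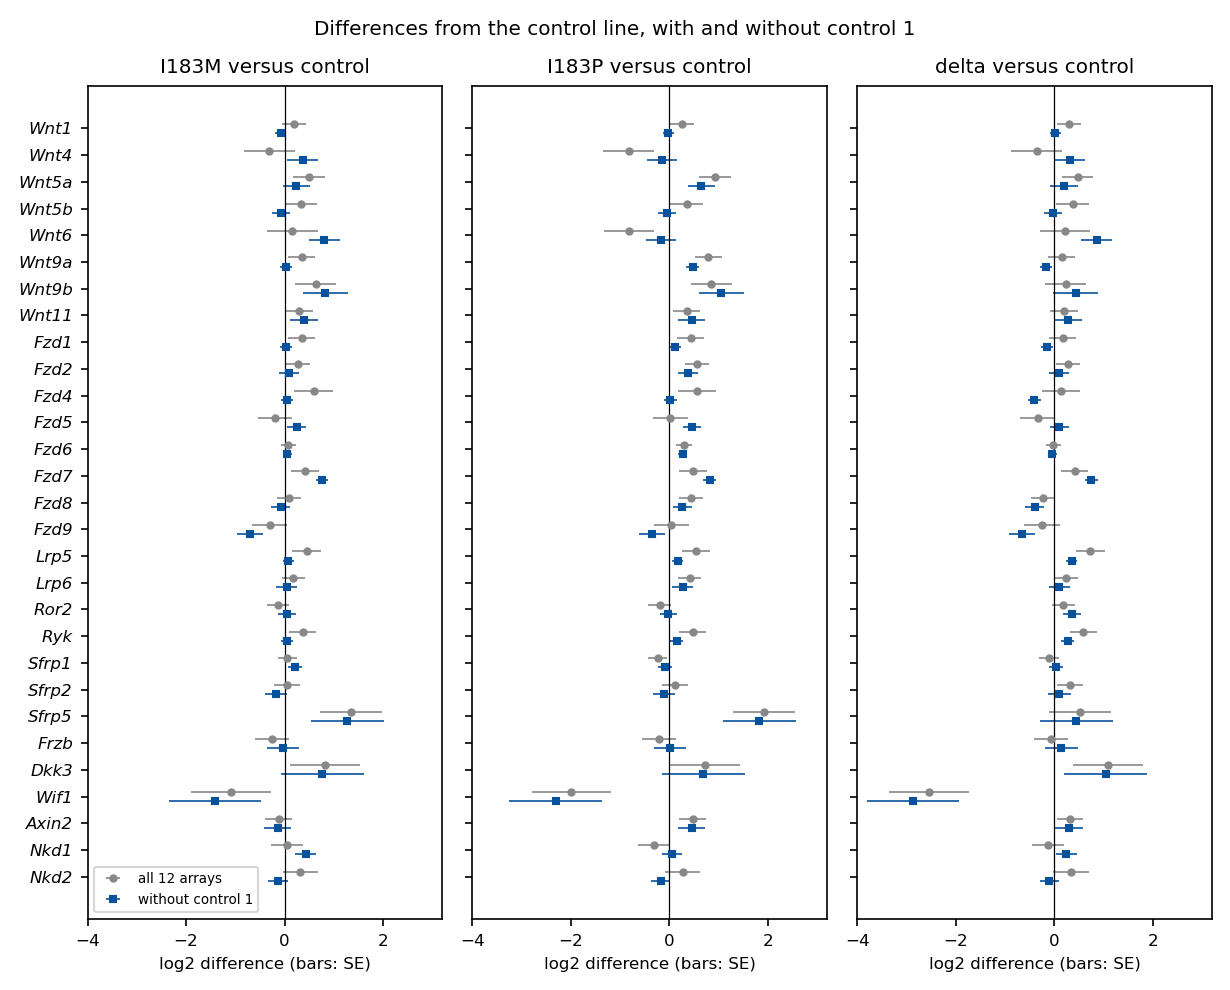
Log2 difference of each of the 29 genes in I183M, I183P and delta hearts minus control hearts, from the limma fit with all 12 arrays (grey circles) and without control 1 (blue squares), with bars for the standard error. Fzd7 lies between 0.75 and 0.82 in all 3 panels without control 1, Sfrp5 is on the right and Wif1 on the left in each, and Fzd4 in delta hearts changes side.

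Among the receptors, Fzd7 read higher in all 3 mutant lines than on 2 of the 3 control arrays, but passed the threshold in no comparison with equal array weights. Fzd7, a Frizzled receptor that signals through beta-catenin and through the polarity branch, fell outside the rule for named genes and was singled out after its values were seen. Its log2 level was -0.68, -0.72 and -0.61 in I183M hearts, -0.55, -0.79 and -0.51 in I183P hearts and -0.57, -0.60 and -0.87 in delta hearts, against -0.42, -1.43 and -1.45 in control hearts. All 9 mutant arrays lay above control replicates 2 and 3 and below control 1. With all arrays the differences from control hearts were 0.42, 0.48 and 0.41 for I183M, I183P and delta (SE 0.28 each, limma adjusted p = 0.879, 0.563 and 0.706). Without control 1 they were 0.76, 0.82 and 0.75 (SE 0.13 each, limma adjusted p = 0.392, 0.140 and 0.071).

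The position of control 1 for Fzd7 was different when background correction and normalization were changed together. After normexp correction and quantile normalization, Fzd7 had log2 intensities of 8.92, 8.91 and 8.99 in I183M hearts, 9.02, 8.88 and 9.06 in I183P hearts and 9.06, 8.87 and 8.80 in delta hearts, against 8.55, 8.40 and 8.41 in control hearts. On that scale all 9 mutant arrays lay above all 3 control arrays, and the differences were 0.48, 0.53 and 0.45 (SE 0.10 each, limma adjusted p = 0.819, 0.298 and 0.151). Among the settings tried, Fzd7 passed the threshold only when arrays were weighted by their quality, with control 1 at a weight of 0.0262 (limma adjusted p = 0.0164 for I183M, 0.0116 for I183P and 0.0364 for delta). With those weights 413, 1097 and 858 of the 29795 features passed for I183M, I183P and delta against control hearts. The 3 comparisons share the control arrays.

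A second Fzd7 probe did not carry the difference in the same way. That probe was well above background on 5 of those 11, with levels of -3.99, -4.93 and -4.49 in I183M hearts, -4.70, -4.24 and -3.98 in I183P hearts and -4.10, -3.23 and -3.48 in delta hearts, against -1.67, -5.06 and -4.76 in control hearts. On it, I183M replicate 2 lay between control replicates 2 and 3. The I183P and delta arrays all lay above control replicates 2 and 3 on it. With all arrays and the mean of both probes, the I183M minus control difference was -0.11 (limma adjusted p = 1). Control 1 was the highest array on both probes, and the mean of both was not fitted without control 1.

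Across the 40 tested genes, all 9 mutant arrays lay above control replicates 2 and 3 for 3 (3.4% of all features), which were Wnt2, Wnt16 and Fzd7, and below them for 2 (2.95%), Fzd9 and Wif1. Wnt2 cleared background on 2 of the 11 other arrays and met the filter only with control 1, so its order is one of values near background. Fzd9, a receptor of the same family, had -1.23, -1.52 and -1.36 in I183M hearts, -1.04, -0.77 and -1.29 in I183P hearts and -1.05, -1.07 and -1.87 in delta hearts, against -1.88, -0.64 and -0.70 in control hearts. Control 1 was the lowest array here, so the order held for the other control arrays alone. On the normexp and quantile scale all 9 lay above all 3 control arrays for 2 genes, Fzd7 and Lrp5 (1.03%), and below them for 0 (0.611%).

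Outside control 1, Fzd4 read lower and Lrp5 higher in delta hearts than in the other lines, though neither passed the threshold. Fzd4, the Frizzled receptor known from vessel growth, had log2 levels of 2.87, 2.75 and 2.79 in delta hearts, against 3.17, 3.30 and 3.31 in I183M hearts, 3.23, 3.41 and 3.05 in I183P hearts and 1.59, 3.32 and 3.11 in control hearts. The delta arrays lay below the 8 others left after control 1 was set aside, a pattern seen for 1 of the 40 genes and 1.99% of all features. The delta minus control difference was 0.13 with all arrays (SE 0.39, limma adjusted p = 0.922) and -0.41 without control 1 (SE 0.13, limma adjusted p = 0.203). After normexp and quantile normalization the delta arrays had 11.83, 11.84 and 11.80, and all 9 others had 11.86 or more (1.08% of all features), with a delta minus control difference of -0.22 (SE 0.12, limma adjusted p = 0.584).

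Lrp5, a coreceptor of the beta-catenin branch, was highest in delta hearts. Its levels were 2.17, 2.07 and 2.27 in delta hearts, against 1.92, 1.89 and 1.89 in I183M hearts, 1.96, 1.94 and 2.05 in I183P hearts and 0.70, 1.71 and 1.93 in control hearts. The delta arrays lay above all other arrays, and without control 1 the same held for Ror2 (2 of 40 genes, 4.17% of all features). The delta minus control difference of Lrp5 was 0.73 with all arrays (SE 0.29, limma adjusted p = 0.625) and 0.35 without control 1 (SE 0.11, limma adjusted p = 0.185). After normexp and quantile normalization the delta arrays of Lrp5 again lay above all 9 others (1 of 40 genes, 2.85% of all features). The I183M minus control difference of the levels was 0.45 (limma adjusted p = 0.879) and without control 1 was 0.08 (limma adjusted p = 0.852).

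Slide moved together with the delta group for both receptors. On the slide that held the delta arrays, the single I183P array had 3.05 for Fzd4 and 2.05 for Lrp5, so that delta was lower and higher than it on every array. With slide as a block, the delta minus control difference was 0.40 for Fzd4 (SE 0.73) and 0.62 for Lrp5 (SE 0.55), both with a limma adjusted p of 1. No slide held both delta and control arrays, so the estimate rests on the I183P arrays of both slides. The part of slide in the delta values was not tested further.

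**Figure D3:**
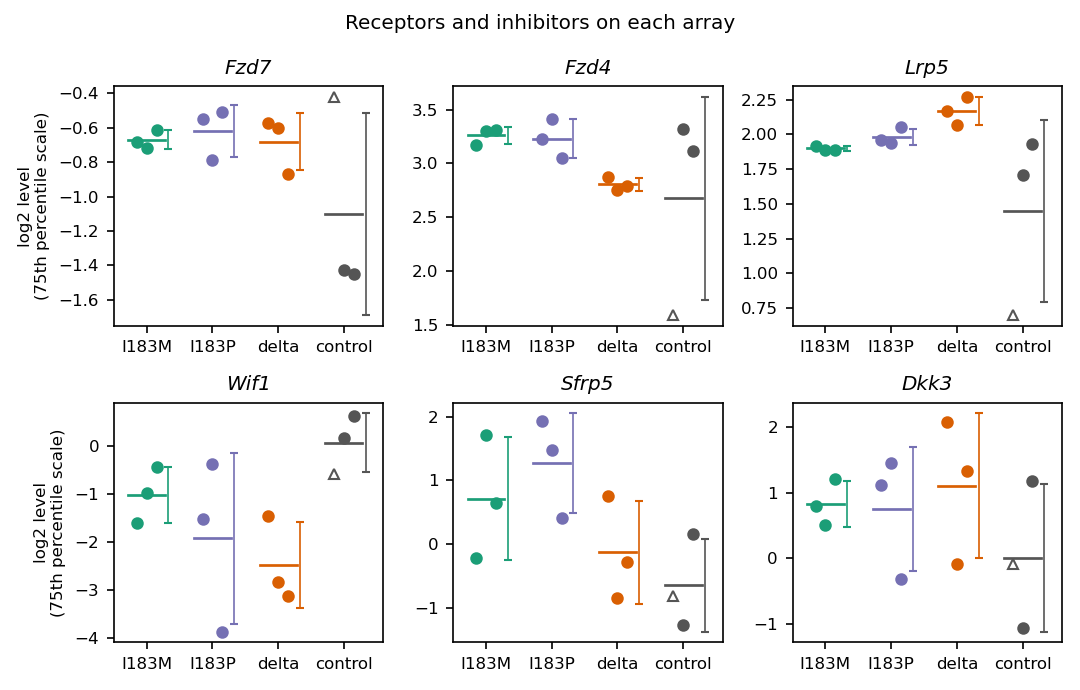
Log2 level of Fzd7, Fzd4, Lrp5, Wif1, Sfrp5 and Dkk3 on each array in I183M, I183P, delta and control hearts; points are arrays, the open triangle is control 1, horizontal lines are means and bars beside them the SD (n = 3). The delta arrays of Fzd4 and Lrp5 lie close together, whereas Wif1, Sfrp5 and Dkk3 spread widely within most groups.

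**Figure D4:**
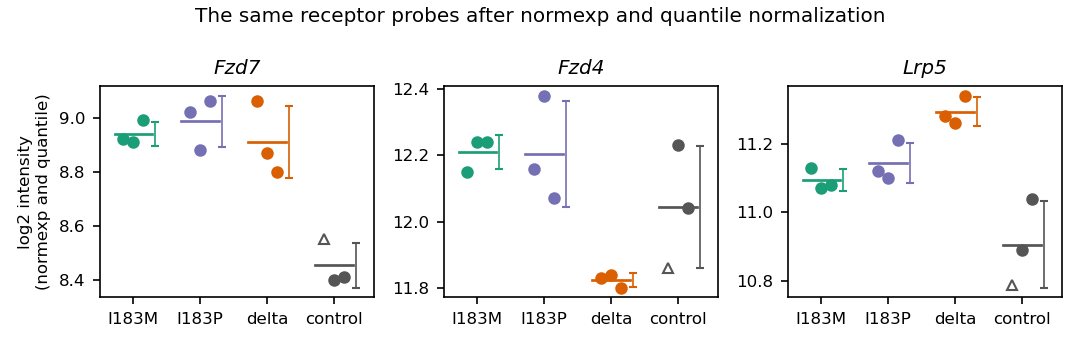
Log2 intensity of Fzd7, Fzd4 and Lrp5 after normexp background correction and quantile normalization, by array in I183M, I183P, delta and control hearts, with symbols as in the plot of levels by array. All 9 mutant arrays of Fzd7 (8.80 to 9.06) lie above the 3 control arrays (8.40 to 8.55), and the delta arrays lie lowest for Fzd4 and highest for Lrp5.

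Ryk, an atypical tyrosine kinase receptor for Wnt proteins, resembled Lrp5 in its levels against control hearts. It had 1.95, 1.82 and 2.04 in delta hearts, against 1.61, 1.90 and 1.64 in I183M hearts, 1.89, 1.82 and 1.73 in I183P hearts and 0.70, 1.55 and 1.78 in control hearts. The delta and control arrays did not overlap, and the difference was 0.59 with all arrays (SE 0.27, limma adjusted p = 0.690) and 0.27 without control 1 (SE 0.13, limma adjusted p = 0.394). The coreceptor Lrp6 overlapped between all groups, with 2.44, 2.65 and 2.59 in I183M hearts, 3.04, 2.86 and 2.48 in I183P hearts and 2.79, 2.77 and 2.29 in delta hearts, against 2.09, 2.41 and 2.63 in control hearts.

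Fzd6 and Fzd8 were higher in I183P than in delta hearts. Fzd6, a receptor of the polarity branch, was read after its values were seen; it had -0.06, -0.11 and -0.17 in I183P hearts, against -0.50 to -0.27 on the 9 other arrays. The I183P minus control difference of Fzd6 was 0.29 (SE 0.16, limma adjusted p = 0.563) and 0.27 without control 1 (SE 0.09, limma adjusted p = 0.488). Fzd8 had -1.68, -1.89 and -1.79 in delta hearts, against -1.11, -0.92 and -1.34 in I183P hearts, -1.40, -1.24 and -1.76 in I183M hearts and -1.92, -1.55 and -1.22 in control hearts. The delta and I183P arrays of Fzd8 did not overlap, and the delta minus I183P difference was -0.66 (SE 0.24, limma adjusted p = 1) with all arrays and -0.66 without control 1 (SE 0.17, limma adjusted p = 0.308). In that comparison the groups did not overlap for 10 of the 40 genes, 4 higher and 6 lower in delta hearts (19.4% of all features, 13.4% higher and 6.07% lower). One of the higher, Ror1, met the filter only with control 1, and among the 29 measured genes 3 were higher and 6 lower.

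Fzd3, a polarity-branch receptor near background, had -3.49, -3.16 and -3.49 in I183M hearts, -3.48, -4.45 and -3.96 in I183P hearts and -3.58, -3.28 and -3.32 in delta hearts, against -2.59, -3.07 and -3.57 in control hearts. All ranges overlapped that of control hearts, and the I183P minus control difference was -0.88 (SE 0.31, limma adjusted p = 0.563) and -0.64 without control 1 (SE 0.28, limma adjusted p = 0.612). After normexp and quantile normalization it was 0.01 (limma adjusted p = 0.986). Ror1, a receptor for Wnt5a, was the 1 gene of the 40 whose I183P arrays lay below the 8 others left without control 1 (1.91% of all features), and it was not well above background on any of these I183P arrays.

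Among the ligands, Wnt9a and Wnt5a had the smallest p-values in I183P against control hearts, without passing the threshold. Wnt9a, a ligand of the beta-catenin branch, had 1.26, 1.06 and 1.12 in I183P hearts, against 0.82, 0.66 and 0.61 in I183M hearts, 0.66, 0.32 and 0.53 in delta hearts and -0.29, 0.73 and 0.61 in control hearts. The I183P arrays lay above all 9 others. Without control 1, Wnt9a and Fzd6 were the 2 of 40 genes with this pattern (1.24% of all features). The I183P minus control difference of Wnt9a was 0.79 (SE 0.27, limma adjusted p = 0.563) and 0.47 without control 1 (SE 0.13, limma adjusted p = 0.364). The delta minus I183P difference was -0.64 (SE 0.27, limma adjusted p = 1) and -0.64 without control 1 (SE 0.12, limma adjusted p = 0.195).

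Wnt5a, the classical ligand of the branch without beta-catenin, had -0.31, 0.34 and 0.37 in I183M hearts, 0.63, 0.61 and 0.41 in I183P hearts and 0.41, 0.27 and -0.39 in delta hearts, against -0.90, -0.27 and 0.06 in control hearts. Only the I183P arrays stood clear of all 3 control arrays. The I183P minus control difference was 0.92 (SE 0.32, limma adjusted p = 0.563) and 0.65 without control 1 (SE 0.28, limma adjusted p = 0.612). For I183M it was 0.50 (limma adjusted p = 0.879) and 0.24 without control 1 (limma adjusted p = 0.841), and for delta 0.47 (limma adjusted p = 0.707) and 0.20 (limma adjusted p = 0.738). With array weights, Sfrp5, Wnt9a and Wnt5a passed for I183P against control hearts beside Fzd7 (limma adjusted p = 0.0451, 0.0365 and 0.0466). They were among 1097 of the 29795 features that passed there with those weights. In that comparison with equal weights, 8 of the 40 genes did not overlap between groups (12.8% of all features, 7.55% higher and 5.23% lower), 7 of them higher (Wnt5a, Wnt9a, Wnt9b, Fzd2, Fzd6, Lrp5 and Sfrp5) and 1 lower (Ror1) in I183P hearts. Ror1 met the filter only with control 1 and was not well above background on any I183P array, and among the 29 measured genes 7 were higher and 0 lower. Without control 1 the groups did not overlap for 15 of the 40 genes (30.5% of all features).

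Wnt6, which acts through beta-catenin, read lower in I183P hearts than in the other mutant lines as a level on the percentile scale. It had -3.93, -4.03 and -3.37 in I183P hearts, against -2.70, -2.68 and -3.03 in I183M hearts. Its level in delta hearts was -3.16, -2.85 and -2.25, against -1.65, -3.86 and -3.37 in control hearts. The I183P arrays did not overlap those of either mutant line, and the I183P minus I183M difference was -0.98 (SE 0.51, limma adjusted p = 1) with all arrays and -0.98 without control 1 (SE 0.28, limma adjusted p = 0.522). After normexp and quantile normalization the I183P arrays had 7.19, 7.08 and 7.33, against 7.27, 7.61 and 7.32 in I183M hearts and 7.49, 7.20 and 7.84 in delta hearts. The groups overlapped on that scale, with an I183P minus I183M difference of -0.20 (SE 0.19, limma adjusted p = 1). Between I183P and I183M hearts, 8 of 40 genes did not overlap (24.4% of all features, 5.79% higher and 18.6% lower), 4 in each direction. Of the 4 lower in I183P hearts, Wnt8a and Ror1 met the filter only with control 1, and among the 29 measured genes 4 were higher and 2 lower.

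Wnt16 spread widely near background, with -4.13, -2.25 and -1.27 in I183M hearts, -3.24, -1.49 and -4.34 in I183P hearts and -3.93, -2.92 and -4.55 in delta hearts, against -2.37, -4.64 and -5.51 in control hearts. Every mutant group overlapped the control arrays, and the I183M minus control difference was 1.62 (SE 1.03, limma adjusted p = 0.879). Without control 1 no mutant group overlapped the control arrays, and the difference was 2.52 for I183M, 2.05 for I183P and 1.27 for delta (SE 1.01 each, limma adjusted p = 0.725, 0.686 and 0.584). After normexp and quantile normalization, I183M replicate 1 (6.62) lay below control replicates 2 and 3 (6.87 and 6.74). A second Wnt16 probe was well above background on 8 of the 11 other arrays. On it, I183P replicate 3 and delta replicate 1 (-5.17 each) lay between control replicates 2 and 3 (-4.70 and -6.24). Wnt5b, a ligand related to Wnt5a, had 0.58, 1.03 and 0.94 in I183M hearts, 0.76, 0.70 and 1.17 in I183P hearts and 0.92, 0.85 and 0.90 in delta hearts, against -0.29, 0.99 and 0.86 in control hearts. Outside control 1, all groups overlapped. In I183M against control hearts 1 of the 40 genes had groups that did not overlap (3.73% of all features, 2.36% higher and 1.37% lower), and this was the ligand Wnt11, with -0.51, -0.42 and -0.45 in I183M hearts, against -0.56, -0.87 and -0.83 in control hearts. Without control 1 the groups did not overlap for 12 of the 40 genes (32.5% of all features).

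Among the 29 genes and with all arrays, the secreted inhibitors Wif1 and Sfrp5 had the largest differences from control hearts in I183M and I183P hearts, and Wif1 the largest in delta hearts, and none passed the threshold. Wif1 had -1.61, -0.99 and -0.45 in I183M hearts, -1.53, -0.38 and -3.86 in I183P hearts and -1.46, -2.84 and -3.13 in delta hearts, against -0.58, 0.16 and 0.62 in control hearts. The delta arrays lay below all 3 control arrays, and all 9 mutant arrays lay below control replicates 2 and 3. The delta minus control difference was -2.54 (SE 0.81, limma adjusted p = 0.436) and -2.87 without control 1 (SE 0.94, limma adjusted p = 0.213). For I183P it was -1.99 (SE 0.81, limma adjusted p = 0.563) and -2.31 without control 1 (SE 0.94, limma adjusted p = 0.571). For I183M it was -1.08 (SE 0.81, limma adjusted p = 0.879) and -1.41 without control 1 (SE 0.94, limma adjusted p = 0.726). After normexp and quantile normalization Wif1 had 8.38, 7.10 and 7.32 in delta hearts, against 8.05, 9.59 and 10.03 in control hearts. The groups overlapped on that scale, since delta replicate 1 lay above control 1, and the difference was -1.63 (SE 0.64, limma adjusted p = 0.439). In delta against control hearts, 3 of the 40 genes did not overlap (13.6% of all features, 10.5% higher and 3.1% lower): Lrp5 and Ryk higher and Wif1 lower. Without control 1 this count was 16 of 40 (34.1% of all features).

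The 3 lowest Wif1 values lay on 1 slide. The 4 arrays of that slide were the delta arrays and I183P replicate 3, which at -3.86 was the lowest of all 12, while the other 2 I183P arrays had -1.53 and -0.38. Delta replicate 1 (-1.46), on the same slide, read higher than I183M replicate 1 (-1.61) and I183P replicate 1 (-1.53) on the other. With slide as a block, the delta minus control difference was 0.37 (SE 1.00, limma adjusted p = 1), and delta minus I183M was 1.45, against -1.46 without the block. Within the other slide, the difference from control hearts was -1.08 for I183M (limma adjusted p = 0.999) and -1.02 for I183P (limma adjusted p = 0.750). Delta hearts and the slide cannot be told apart except through I183P replicate 3. In bulk apex RNA, fewer cells of a type and less RNA per cell cannot be told apart either.

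Sfrp5 read higher on all I183P arrays than on the control arrays, without passing the threshold with equal array weights. It had -0.21, 1.71 and 0.65 in I183M hearts, 1.93, 1.47 and 0.41 in I183P hearts and 0.75, -0.84 and -0.27 in delta hearts, against -0.81, -1.26 and 0.16 in control hearts. The I183P arrays lay above all 3 control arrays, and the I183M and delta arrays overlapped with them. The difference from control hearts was 1.91 for I183P (SE 0.63, limma adjusted p = 0.563), 1.35 for I183M (SE 0.63, limma adjusted p = 0.879) and 0.52 for delta (SE 0.63, limma adjusted p = 0.824). Without control 1 the values were 1.82, 1.27 and 0.44 (SE 0.74 each, limma adjusted p = 0.571, 0.725 and 0.779).

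Dkk3, a divergent member of the Dickkopf family, spread more widely within I183P, delta and control hearts (SD 0.94, 1.09 and 1.12) than within I183M hearts (SD 0.35; n = 3 each). It had 0.79, 0.50 and 1.20 in I183M hearts, 1.11, 1.45 and -0.32 in I183P hearts and 2.07, -0.09 and 1.33 in delta hearts, against -0.08, -1.06 and 1.18 in control hearts. All groups overlapped, and the delta minus control difference was 1.09 (SE 0.71, limma adjusted p = 0.704) and 1.04 without control 1 (SE 0.84, limma adjusted p = 0.586).

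Genes of atrial muscle varied on the same arrays as Dkk3. All 3 listed atrial genes, Myl7, Myl4 and Sln, cleared background on each of the 11 arrays. Their summed level on a linear scale, where 1 is the 75th percentile of an array, ranged over 18.9 to 39.1 in I183M hearts, 2.52 to 76 in I183P hearts and 11.9 to 165 in delta hearts, against 2.83 to 52.6 in control hearts. Dkk3 and the atrial list were both lowest on control replicate 2 and I183P replicate 3 and both highest on delta replicate 1. Sfrp5 was also lowest on control replicate 2, but stood at 0.41 on I183P replicate 3. The part of atrial tissue in these values was not tested.

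**Figure D5:**
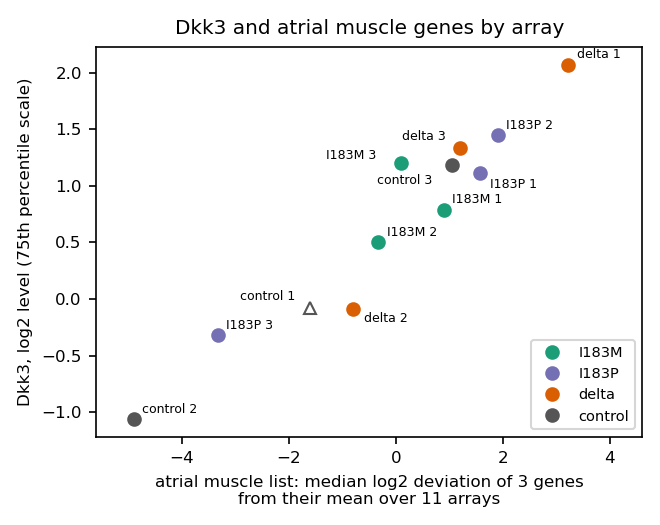
Log2 level of Dkk3 on each of the 12 arrays against the median log2 deviation of the atrial muscle genes Myl7, Myl4 and Sln from their mean over the 11 arrays other than control 1; colours give the groups and the open triangle is control 1. Control replicate 2 (-4.9, -1.06) lies at the lower left and delta replicate 1 (3.22, 2.07) at the upper right.

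The targets of the pathway showed no difference past the threshold. Axin2, a feedback inhibitor and widely used readout of beta-catenin signalling, had -3.64, -3.56 and -3.26 in I183M hearts, -2.82, -3.32 and -2.57 in I183P hearts and -2.71, -2.96 and -3.49 in delta hearts, against -3.41, -3.40 and -3.30 in control hearts. Every mutant group overlapped the control arrays. The I183P minus I183M difference was 0.59 (SE 0.27, limma adjusted p = 1) and that for delta minus I183M 0.43 (SE 0.27, limma adjusted p = 1), and with the mean of both Axin2 probes the I183P minus I183M value was -0.08. In delta against I183M hearts, 3 of the 40 genes did not overlap (17.3% of all features, 11% higher and 6.28% lower), 2 higher (Lrp5 and Ror2) and 1 lower (Fzd4) in delta hearts.

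On the probes used, Nkd1 and Nkd2, which restrain signalling at the Dishevelled protein, differed little outside control 1. Nkd1 had -1.81, -1.90 and -1.95 in I183M hearts, -2.57, -1.92 and -2.31 in I183P hearts and -1.87, -2.25 and -2.10 in delta hearts, against -1.20, -2.50 and -2.12 in control hearts. Nkd2 had 1.91, 1.95 and 1.87 in I183M hearts, 1.55, 1.79 and 2.24 in I183P hearts and 1.95, 1.96 and 1.88 in delta hearts, against 0.70, 2.23 and 1.84 in control hearts. Control 1 was the highest array for Nkd1 and the lowest for Nkd2. Outside control 1, Nkd1 in I183M hearts lay above control replicates 2 and 3, with a difference of 0.43 (SE 0.21, limma adjusted p = 0.725). A second Nkd1 probe, well above background on 5 of the 11 other arrays, spread more widely. On it, I183M hearts had -2.47, -0.63 and -2.96 and I183P hearts -5.53, -5.55 and -5.78. Delta hearts had -4.89, -2.83 and -3.98, against -0.39, -4.77 and -4.49 in control hearts.

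Of 69 further pathway genes, among them secretion factors, Dishevelled proteins, R-spondin receptors and polarity genes, all 69 had a probe and 61 were tested. None passed the threshold in any of the 6 comparisons (limma adjusted p under 0.05). At an unadjusted p under 0.05, limma gave 2 of 61 for I183M, 8 for I183P and 8 for delta against control hearts, beside 1.46%, 5.18% and 7.35% of all features. The median difference of the 61 was 0.24, 0.30 and 0.28, beside 0.11, -0.03 and 0.04 over all features tested. Most of the 61 were well above background on all 11 arrays other than control 1. Over the 19426 features that met this criterion the median difference was 0.27, 0.27 and 0.28. Without control 1 the medians of the 61 were 0.08, 0.02 and 0.08, beside 0.09, 0.01 and 0.16 over all features. Over the 19426 features they were 0.01, 0.00 and 0.04.

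Lgr6, a receptor for R-spondins, had -1.64, -1.54 and -1.63 in I183M hearts, against -2.90, -2.32 and -2.36 in control hearts. The groups did not overlap, and the difference was 0.92 (SE 0.21, limma adjusted p = 0.879) and 0.74 without control 1 (limma adjusted p = 0.380). With all arrays the Lgr6 difference from control hearts was 0.59 for I183P and 0.28 for delta. Dvl3, a Dishevelled protein that relays the signal from Frizzled receptors, had 3.83, 4.04 and 3.82 in delta hearts, against 2.08, 2.64 and 3.16 in control hearts. These groups did not overlap either, with a difference of 1.27 (limma adjusted p = 0.292) and of 1.00 without control 1 (limma adjusted p = 0.141). Dvl3 also differed from control hearts by 0.99 in I183P and 0.51 in I183M hearts with all arrays. No control array lay on the slide of the delta arrays, and the part of slide in Dvl3 was not tested. Tnfrsf19, a beta-catenin target, had 0.34, 0.04 and -0.24 in I183P hearts, against -1.87, -1.39 and -1.71 in control hearts, a difference of 1.70 (limma adjusted p = 0.563) and of 1.60 without control 1 (limma adjusted p = 0.406). The Tnfrsf19 difference with all arrays was 1.37 for I183M and 1.41 for delta, so it was not particular to I183P hearts.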

How the data were processed

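Total RNA from 12 heart apex samples was labelled with Cy3 and hybridised to one-colour Agilent arrays. The deposited scanner files give intensity per spot, extracted with Agilent Feature Extraction 11.0.1.1 (protocol GE1_1100_Jul11, mm9 layout), per the file headers. The authors also deposited a table of log2 values of the same arrays, made with limma per the submitters' processing notes. It followed normexp-corrected, quantile-normalized values and was used as an alternative.

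Processed intensity was put on the log2 scale, minus the 75th percentile of each array over non-control spots. Spots of a probe were averaged, and 96 probes with a missing value were left out. Tests were limited to the 41591 probes whose signal stood well above background on 3 or more of the 12 arrays. Probes were named by matching unversioned accessions to a RefSeq gene table (27235 of 55681 probes), and the brightest tested probe by mean stood for each gene, which left 29795 features. Groups were compared with limma 3.58.1 in R 4.3.3, with group as the only term, all arrays sharing one estimate of spread, and Benjamini-Hochberg adjustment over all features. The fit was tested on simulated data. The number of arrays limits the precision: an exact test of 3 against 3 arrays cannot go below p = 0.10.

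Values on every array are given for the 4 module genes of smallest p in each comparison with control hearts, the 2 in each comparison between mutant lines, the 2 of highest median level in each role, and for up to 3 further pathway genes of small p. The members and lists were chosen with earlier results of these data known. Replicate numbers recur between groups, but only 6 of 18 same-numbered pairs of arrays had deviations that correlated above 0.1, so numbers were not used as pairs. For normexp the mean spot signal was not in the files, and the median signal and local background were used, with an offset of 50.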

Additional observations from a re-analysis of the deposited data

How the results depend on the processing

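Of the module counts, only array weights moved any: 1 gene passed for I183M, 4 for I183P and 1 for delta against control hearts, where equal weights gave 0. Default weights by REML did not converge, and gene-by-gene weights were used. Counts over all features against control hearts moved more. For I183M (0) they were 2 with normexp and quantile normalization, 2 in the deposited table, 1 with quantile normalization of processed signal and 413 with array weights. For I183P (1) they were 3 with normexp, 2 in the deposited table, 4 when control replicate 1 did not count in the filter, 1097 with array weights, and 0 with the slide block, the compared groups only, or slide 1 only. For delta (22) they were 11 with quantile normalization, 13 without the filter, 10 with the mean of probes, 858 with array weights, 0 with the slide block or the compared groups only, and 7 with the replicate block. Leaving out 1 array gave 0 to 5 features for I183P and 0 to 51 for delta. The highest counts, 5 and 51, came without control replicate 1. Without control replicate 2 the counts were 2 and 1, and without control replicate 3 they were 0 and 0. Each I183P array left out gave 0, and delta arrays 1, 2 and 3 left out gave 0, 5 and 2.

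Between mutant lines (0 each), I183P against I183M gave 160 with array weights. Delta against I183M gave 5 with normexp, 5 in the deposited table, 4 with quantile normalization, 3 with the filter without control replicate 1, 72 with array weights and 13 without control replicate 1. Delta against I183P gave 5, 3 and 2 with normexp, the deposited table and quantile normalization, 10 with array weights and 7 without control replicate 1; leave-one-out otherwise gave 0. Alternatives added after seeing the data gave, with normexp and control replicate 1 left out, 10, 11 and 303 features against control hearts for I183M, I183P and delta, and 97 and 10 for delta against I183M and I183P. The replicate block with control replicate 1 left out gave 0 for I183P and 13 for delta against control hearts, 1 for delta against I183M and 1 for delta against I183P.

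Signs of named differences turned in these cases, and the cause was not tested. Fzd7 in I183M hearts was -0.11 with the mean of its probes and all arrays, control replicate 1 among them. Fzd3 in I183P hearts was 0.01 with normexp, 0.11 in the deposited table and 0.37 with quantile normalization. Fzd4 in delta against control hearts was -0.22, -0.24 and -0.25 under those settings, -0.43 with array weights, -0.41 without control replicate 1, -0.31 with normexp and -0.40 with the replicate block, both of these last without control replicate 1; leaving out 1 array gave -0.41 to 0.45. Wif1 in delta hearts with the slide block was 0.37 against control, 1.45 against I183M and 1.39 against I183P hearts, and 0.22 against I183P hearts without I183P replicate 2 (-1.52 to 0.22 over arrays left out). Axin2 was -0.08 for I183P against I183M hearts with the mean of probes and -0.07 for delta against I183M hearts with the slide block. The replicate block changed no call of a module gene. Genes near background have no readable order.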

Other observations

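Of the 12 module genes with a pair of probes, some pairs did not move together over the arrays. The second Wnt1 probe was well above background on 0 of the 11 arrays other than control replicate 1, while the probe used was on all 11. Both Fzd5 and both Lrp6 probes were well above background on all 11. Over these arrays the levels of the pair correlated at -0.15 for Fzd5 and 0.45 for Lrp6. The second Axin2 probe was well above background on 3 of the 11, and read -5.62, -4.75 and -5.83 in I183P hearts, against -3.59, -4.61 and -5.75 in I183M hearts, where the probe used was higher in I183P hearts.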
